A study of Solanum lycopersicum with 18 samples.

Results

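Genes that were on or off by variety were taken from the fruit transcriptomes of 3 tomato varieties, the reference cultivar Heinz (H) and the local Campanian varieties San Marzano (SM) and Vesuviano (RSV). A gene counted as on in a variety when its mean level was at least 2 FPKM at both growing sites, and as off when its mean was under 0.1 FPKM at both sites. FPKM counts the fragments of a gene per kilobase of transcript, scaled to the mapped fragments of the library. A member had to be on in 1 or 2 varieties and off in at least 1 other, and Solyc04g071610 was left out by the rule. Of 29612 genes listed once under a single ID in every variety, 119 were members (0.402%). The levels between varieties chose these genes, so they are given below as a description, without a test.

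RNA of red ripe fruit was sequenced from plants grown in the field at Acerra or at Sarno, the labels naming no treatment, with 3 replicate libraries in each of the 6 groups (18 libraries). Fruit was pooled within a plot and divided into aliquots, and the methods do not say whether replicates were separate plots or aliquots, so the SDs and p-values given here may cover technical spread only. Reads of H were aligned to the reference genome of that cultivar, and reads of SM and RSV each to the assembly of the same variety. Every difference between varieties is thus also a difference between assemblies, and the 2 cannot be told apart.

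Cultivars of a crop can differ in gene content, in the number of copies of a gene and in regulatory sequence, and a gene transcribed in one cultivar may give no transcript in another. In tables made by annotation-guided transcript assembly, fragments of one stretch of genome can also be credited to a neighbouring gene model or to a joined model, so a value of 0 belongs to the listed model and not to the stretch of genome. A Solyc ID names the chromosome by the digits after Solyc and the order along it by the digits after g. The sources used here give no name or function for the members, which are described by ID, position, level and site response. The library kit did not mark strand, so reads of overlapping genes on opposite strands cannot be told apart, and reads that fit several gene copies were shared among them by the authors' estimate.

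The sum of FPKM per library ran from 892841 to 3279110 and was highest in RSV Sarno replicate 3, where a single locus held 993065 FPKM. The tables hold no read counts, and the fragment totals that the study lists per library were not used here. The ripening gene ACS2 (Solyc01g095080), which encodes an enzyme of ethylene synthesis, was between 34.1 and 88.3 FPKM at Acerra and between 20.3 and 532 at Sarno. Its highest values were 532 FPKM in RSV Sarno replicate 3 and 246 in H Sarno replicate 1. The ethylene-forming oxidase ACO4 (Solyc12g005940) was between 0.0296 and 0.181 FPKM at Acerra (median 0.0807) and between 0.0351 and 11.98 at Sarno (median 1.16). Of the 2 chlorophyll a-b binding protein genes taken as markers of green tissue, Solyc03g115900 was between 0 and 0.189 FPKM in the 9 Acerra libraries and between 0.270 and 10.6 FPKM in the 9 Sarno libraries. The other, Solyc05g056050, was between 0 and 0.110 FPKM at Acerra and between 0.144 and 3.98 FPKM at Sarno. Both green tissue markers were thus higher in every Sarno library, and the part of these ripening and green tissue differences in the site responses below was not tested.

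The 119 members fell into 12 variety patterns. The most common was on in H and off in both local varieties, with 41 genes, and the mirror pattern, on in SM and RSV and off in H, held 19. A further 7 genes were on in RSV alone, 3 in SM alone, 7 in H and SM but not RSV, and 4 in H and RSV but not SM. In the other 38 members 1 variety lay between the levels. Of these, 9 were on in RSV, off in SM and between in H, 9 were on in H, off in SM and between in RSV, 8 were on in H, off in RSV and between in SM, and 8 were on in RSV, off in H and between in SM. The last 4 were on in SM, with 2 off in RSV and between in H and 2 off in H and between in RSV. Counted by variety, 69 members were on in H, 47 in RSV and 33 in SM, and 39 were off in H, 61 in RSV and 70 in SM.

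**Figure D1:**
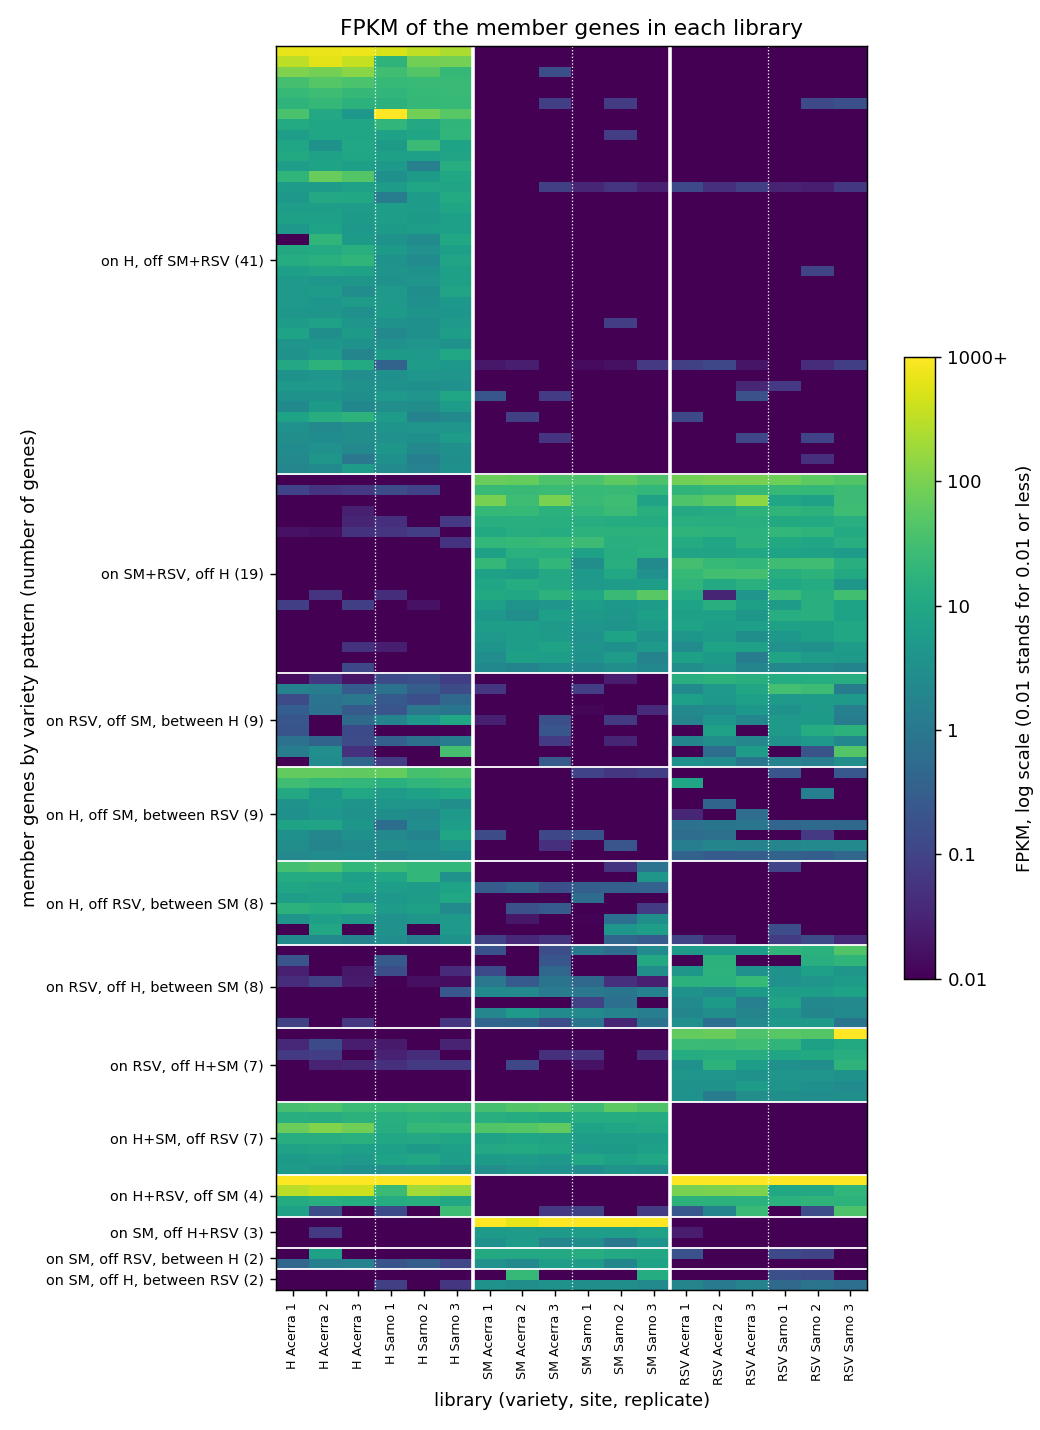
FPKM of the 119 members (rows, grouped by variety pattern with the number of genes) in the 18 libraries (columns), on a log colour scale on which 0.01 stands for 0.01 or less and the top colour for 1000 or more. The largest block, 41 genes, is bright in the 6 H libraries and dark in the 12 SM and RSV libraries, and single bright or dark cells inside a block are libraries that stand apart from their replicates.

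Most members were expressed at low levels where they were on. The lowest mean of a member over its on groups had a median of 5.12 FPKM, was under 10 FPKM for 90 of the 119 and was 100 FPKM or more for 3. Of the 170 off varieties summed over members, 113 were listed at 0 in all 6 libraries, and 71 members were at 0 in every off library. In 33 members at least 1 library of an on variety was under 2 FPKM, and in 25 at least 1 library of an off variety reached 0.1 FPKM, the highest being 0.263 FPKM. The members nearest the level of 2 FPKM from inside were Solyc02g092220 with a lowest on mean of 2.03 FPKM and Solyc06g084070 with 2.13 FPKM, both on in RSV. Just outside were Solyc12g021160, whose 2.00 FPKM was below the level before rounding, and Solyc11g020050 at 1.97 FPKM. The members nearest the level of 0.1 FPKM from inside were Solyc01g056370 at 0.0980 FPKM and Solyc12g017430 at 0.0974 FPKM, and just outside were Solyc11g045440 at 0.104 FPKM and Solyc06g005100 at 0.108 FPKM. A group mean could rest on 1 library. With single libraries omitted, 98 members met the rule whichever library was missing and 21 did not, up to 6 of them for 1 library (RSV Acerra replicate 2).

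Among the 41 genes on in H alone, Solyc00g011160 had the highest level. Its libraries in H were 679, 713 and 736 FPKM at Acerra and 529, 335 and 237 at Sarno, and it was listed at 0 in all 12 libraries of SM and RSV. Its locus spanned 276469 bp in H, and the longest off locus 484229 bp. In the RSV locus a row of Solyc00g010210 had 1665 ± 425 FPKM at Acerra and 4924 ± 5254 at Sarno. Rows of Solyc00g010750 there had means between 516 and 855 FPKM. Solyc05g053060 in H reached 317, 629.5 and 357 FPKM at Acerra and 17.977, 85.4 and 91.7 at Sarno, with 0 in all libraries of SM and RSV. Acerra was the higher site in Solyc00g011160 and Solyc05g053060, without overlap between sites. Solyc09g050120 in H gave 106, 92.2 and 129 FPKM at Acerra and 28.9, 45.8 and 21.7 at Sarno, and in SM only 1 of 6 libraries exceeded 0.1 FPKM (0.157). Solyc12g019970 in H gave 34.1, 48.4 and 37.8 FPKM at Acerra and 22.1, 23.9 and 23.9 at Sarno, and Solyc01g103730 gave 22.6, 28.3 and 21.7 FPKM at Acerra and 19.8, 22.7 and 23.1 at Sarno, the latter with little spread between libraries and overlapping sites. Both were at 0 in the 12 libraries of SM and RSV. The remaining 36 genes of the pattern included Solyc04g071110, whose Sarno mean was set by 1 library (37.0, 10.4 and 4.65 FPKM at Acerra and 1138, 87.8 and 50.8 at Sarno). In 29 of the 41 genes all off libraries were at 0, and 8 had an off library of 0.1 FPKM or more.

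Among the 19 genes on in SM and RSV and off in H, Solyc03g058990 was the highest. It gave 72.6, 66.5 and 40.6 FPKM at Acerra and 38.0, 57.2 and 39.5 at Sarno in SM and 85.0, 95.8 and 96.4 FPKM at Acerra and 80.3, 54.4 and 44.8 at Sarno in RSV, and 0 in all H libraries. Solyc04g005310 was even across the local varieties, with 23.0, 22.9 and 25.7 FPKM at Acerra and 22.6, 23.8 and 20.3 at Sarno in SM and 18.8, 21.2 and 22.2 FPKM at Acerra and 22.8, 21.6 and 26.9 at Sarno in RSV, while its H libraries lay between 0 and 0.139 FPKM, close enough to the off level that it was no longer a member without H Sarno replicate 3. Solyc02g062730 was equally even, with 14.0 ± 0.222 FPKM at Acerra and 12.5 ± 0.628 at Sarno in SM and 13.8 ± 0.800 FPKM at Acerra and 12.3 ± 1.74 at Sarno in RSV (mean ± SD, n = 3). Solyc04g016350 had means of 20.1 ± 3.67 FPKM at Acerra and 20.1 ± 5.81 at Sarno in SM and 13.2 ± 3.61 FPKM at Acerra and 21.0 ± 6.22 at Sarno in RSV. Solyc06g076530 varied most with site among the 5 highest genes, with 94.0, 28.2 and 98.4 FPKM at Acerra and 24.2, 28.4 and 7.57 at Sarno in SM and 41.2, 53.9 and 139 FPKM at Acerra and 8.77, 7.32 and 26.8 at Sarno in RSV, so that the sites overlapped in SM and not in RSV. The locus of Solyc06g076530 also held other expressed rows in all 3 varieties. The highest had 5263 ± 1005 FPKM at Acerra in H, 3907 ± 1253 at Sarno in SM and 3181 ± 1295 at Acerra in RSV. In 9 of the 19 genes every H library was at 0. Solyc01g106620, whose ID also stands in the network data of the study without a description, was between 9.69 and 53.6 FPKM in SM, and in RSV its libraries were 11.9, 0.0324 and 4.18 FPKM at Acerra and 24.5, 13.5 and 31.1 at Sarno, of which 1 Acerra library was near 0.

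Of the 7 genes on in RSV alone, Solyc00g008570 had the highest level, and its Sarno mean rested on 1 library. Its RSV libraries were 63.1, 69.2 and 39.6 FPKM at Acerra and 50.8, 46.7 and 1933 at Sarno, so the third Sarno library, the one with the highest FPKM sum, stood far above the others. It was at 0 in all libraries of H and SM, and it remained a member without that library. Solyc00g090430 gave 26.2, 24.6 and 27.8 FPKM at Acerra and 18.9, 7.01 and 10.7 at Sarno, higher at Acerra without overlap. Solyc02g065310 gave 12.5, 13.2 and 12.8 FPKM at Acerra and 8.87, 11.1 and 13.0 at Sarno, with overlapping sites, while Solyc01g011450 lay between 3.54 and 4.42 FPKM in all 6 RSV libraries. Solyc02g086820 lay between 2.98 and 17.5 FPKM, with 1 high library at each site.

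All 7 genes on in H and SM were listed at 0 in every RSV library, which held for no other of the 12 patterns. Solyc06g005870 gave 33.6, 38.0 and 25.1 FPKM at Acerra and 24.4, 26.3 and 27.1 at Sarno in H and 33.7, 44.6 and 52.3 FPKM at Acerra and 26.4, 55.8 and 40.6 at Sarno in SM, with overlapping sites in both varieties. Solyc01g015300 was even over all groups, with 14.2 ± 1.90 FPKM at Acerra and 14.8 ± 0.666 at Sarno in H and 12.6 ± 1.39 FPKM at Acerra and 12.2 ± 0.0116 at Sarno in SM, and so was Solyc01g015260 in H, with 7.50 ± 0.929 FPKM at Acerra and 6.20 ± 0.745 at Sarno. Solyc10g009120 and Solyc02g022880 completed the 5 highest. Solyc02g022880 had means of 13.7 ± 0.991 FPKM at Acerra and 9.67 ± 0.877 at Sarno in H and 8.36 ± 0.717 FPKM at Acerra and 6.17 ± 0.133 at Sarno in SM, and Solyc10g009120, which differed most by site, is described below.

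The 4 genes on in H and RSV and off in SM included Solyc07g049140, the most highly expressed member. Its libraries were 7215, 11829 and 8025 FPKM at Acerra and 11574, 17494 and 6118 at Sarno in H and 6049, 8136 and 8818 FPKM at Acerra and 6389, 5377 and 9244 at Sarno in RSV, and all 6 SM libraries were at 0. Among the loci of H it ranked 8 at Acerra and 6 at Sarno, and among those of RSV 11 at Acerra and 24 at Sarno. The gene lies on chromosome 7 at 56690994 to 56692596 in H, with a locus of the same length, 1603 bp, in all 3 assemblies. Solyc12g042800 was low and even, with 11.9, 13.4 and 12.3 FPKM at Acerra and 12.2, 13.5 and 10.047 at Sarno in H and 16.4, 16.4 and 15.9 FPKM at Acerra and 15.4, 17.7 and 17.0 at Sarno in RSV, and at 0 in SM. Solyc05g052560, with higher levels at Acerra than at Sarno in both varieties, is described with the site responses. Solyc06g048840 was on by its means alone, since its libraries were 7.33, 0.142 and 0 FPKM at Acerra and 0.136, 0 and 28.2 at Sarno in H and 0.243, 1.78 and 24.3 FPKM at Acerra and 0, 0.155 and 39.6 at Sarno in RSV, with 1 or more libraries under 0.3 FPKM in each group.

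The 3 genes on in SM alone ranged widely. Solyc11g027650 gave 3165, 648 and 1711 FPKM at Acerra and 1422, 2373 and 1059 at Sarno in SM, with overlapping sites, and 0 in all 12 libraries of H and RSV. Solyc01g057480 was steady, with 5.22, 5.47 and 5.11 FPKM at Acerra and 6.32, 6.46 and 7.69 at Sarno, and its off libraries did not exceed 0.0710 FPKM. Solyc06g033970 gave 3.18, 5.82 and 1.90 FPKM at Acerra and 2.92, 1.03 and 3.50 at Sarno, with 1 library under 2 FPKM at each site, and was no longer a member without SM Sarno replicate 3.

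Among the 38 members with a variety between the levels, Solyc00g009760 had the highest on level, 62.9, 63.4 and 60.0 FPKM at Acerra and 65.4, 35.2 and 40.6 at Sarno in H, while SM lay between 0 and 0.104 FPKM and RSV between 0 and 0.223 FPKM. Solyc08g061330 and Solyc10g081080, both on in H, followed with means of 31.2 ± 10.4 FPKM at Acerra and 22.0 ± 3.00 at Sarno and of 24.2 ± 4.69 FPKM at Acerra and 18.7 ± 3.27 at Sarno. In Solyc10g081080 the between value of RSV came from 1 library at 8.51 FPKM, with the other 5 at 0. Solyc07g032080 was on in RSV at 14.5, 16.1 and 14.0 FPKM at Acerra and 11.9, 12.2 and 13.0 at Sarno, against 0.0138 to 0.165 FPKM in H and 0 to 0.0256 FPKM in SM. Solyc12g038430, also on in RSV, had means of 5.95 ± 1.14 FPKM at Acerra and 5.32 ± 0.477 at Sarno and was at 0 in all SM libraries. Solyc01g090350 and Solyc03g096250, whose IDs stand in the network data of the study without a description, were both on in RSV, off in SM and between in H. The RSV libraries of Solyc01g090350 were 0, 0.607 and 5.77 FPKM at Acerra and 0, 0.192 and 46.2 at Sarno, and those of Solyc03g096250 were 2.50, 5.12 and 9.03 FPKM at Acerra and 31.8, 27.3 and 1.34 at Sarno. Single libraries thus set the means of Solyc01g090350, and without RSV Sarno replicate 3 it was no longer a member.

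Among the other members with a between variety, those on in H were Solyc04g051180, Solyc06g008470, Solyc08g076110 and Solyc09g014430, off in RSV, and Solyc08g048510, off in SM. Solyc08g076110 was steady, with 8.74, 7.45 and 7.97 FPKM at Acerra and 6.001, 5.58 and 7.78 at Sarno in H, 0.169 to 0.453 FPKM in SM and 0 in all RSV libraries. Solyc06g008470 was uneven in H, with 12.1, 11.7 and 6.66 FPKM at Acerra and 8.57, 20.2 and 3.52 at Sarno, and in SM it was at 0 except for 1 library at 4.39 FPKM. Solyc09g014430 had means of 5.84 ± 1.58 FPKM at Acerra and 6.77 ± 2.85 at Sarno in H and was above 0 in only 1 library of SM and RSV, at 0.579 FPKM in SM. Those on in RSV and off in H included Solyc02g021260 and Solyc09g008180, both described with the site responses, and Solyc09g005800, which was also near the on level in SM, with 2.49, 2.28 and 1.21 FPKM at Acerra and 0.978, 0.859 and 1.58 at Sarno against 3.60, 2.63 and 5.21 FPKM at Acerra and 6.09, 6.40 and 8.04 at Sarno in RSV. Solyc06g075470, in the same pattern, had 1 high library among 4.43, 17.2 and 3.33 FPKM at Acerra and 3.63, 6.76 and 4.51 at Sarno in RSV. Solyc00g126000 was seen in 3 of 6 libraries, with 0, 16.5 and 0 FPKM at Acerra and 0, 14.4 and 18.5 at Sarno in RSV, and its membership was lost without any of 5 libraries taken singly. Of those on in RSV and off in SM, Solyc01g108690 had means of 3.18 ± 1.27 FPKM at Acerra and 3.36 ± 1.81 at Sarno and Solyc06g051490 of 2.77 ± 1.34 FPKM at Acerra and 3.85 ± 2.17 at Sarno, with H below RSV in every Acerra library of either gene. The 4 members on in SM were Solyc06g008180, Solyc04g081250, Solyc12g098180 and Solyc05g023990. Solyc06g008180 gave 10.7, 10.6 and 10.2 FPKM at Acerra and 13.3, 10.3 and 9.69 at Sarno in SM, with 1 of 6 H libraries at 7.16 FPKM and the others at 0. Solyc12g098180 was low and even in SM, at 3.50, 3.07 and 3.46 FPKM at Acerra and 3.09, 3.09 and 2.49 at Sarno, against 0.525 to 1.84 FPKM in RSV. Solyc05g023990 rested on 1 library at each site, with 0, 21.9 and 0 FPKM at Acerra and 0, 0 and 12.4 at Sarno, and Solyc04g081250 had means of 3.89 ± 1.87 FPKM at Acerra and 5.26 ± 3.05 at Sarno.

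Replicates of the members differed more than those of other genes that were on. The coefficient of variation between the 3 replicates had a median over members of 20.0% in H Acerra, 33.1% in H Sarno, 18.3% in SM Acerra, 21.6% in SM Sarno, 27.3% in RSV Acerra and 32.5% in RSV Sarno. Over all genes on in the same variety the medians were between 8.58% and 15.4%. Short loci were also more frequent. A locus under 300 bp was found for 10.1% of the members on in H, 12.1% of those on in SM and 14.9% of those on in RSV, against 0.885%, 0.829% and 0.999% of all genes on in the variety. Without the short loci the median coefficient of variation was 21.5%, 18.4% and 27.7% for the members of H, SM and RSV, against 12.7%, 11.1% and 10.5% for all genes. The members carry low levels as a group, and the part of level in this spread was not tested.

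Members were found on every chromosome. Chromosome 1 held the most, 19 of 3619 listed genes (0.525%), and chromosome 6 the largest share, 16 of 2435 (0.657%). Chromosome 7 held the fewest, 2 of 2142 (0.0934%), namely Solyc07g049140 and Solyc07g032080. The unplaced sequence, numbered as chromosome 0, held 5 of 814 (0.614%), and the other chromosomes lay between 0.273% and 0.514%. Of the 19 genes on in SM and RSV and off in H, 5 were on chromosome 1, 4 on chromosome 3 and 3 on chromosome 4, and 0 on the unplaced sequence. Of the 41 genes on in H alone, 6 were on chromosome 1 and 5 each on chromosomes 2, 3 and 12. No member changed chromosome between assemblies.

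**Figure D2:**
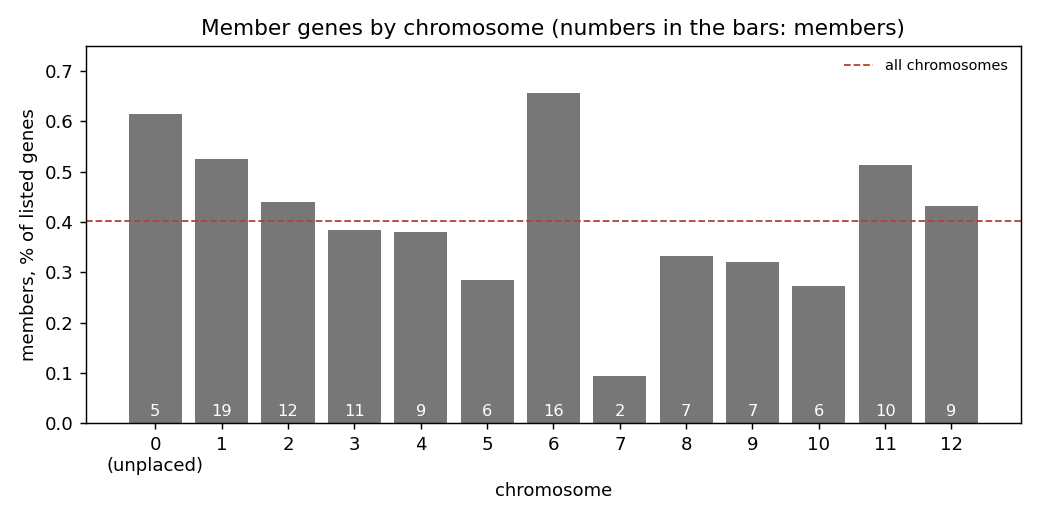
Members as a percentage of the listed genes of each chromosome (bars, number of members inside), with the share over all chromosomes (0.402%) as a dashed line. Chromosome 6 is highest at 0.657% and chromosome 7 lowest at 0.0934%.

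Members did not form long runs along the chromosomes. Only 2 pairs of members had no other listed gene between them, and this held in the gene order of each of the 3 assemblies. The first pair, Solyc01g112370 and Solyc01g112380, was on in SM and RSV and off in H, and both genes were given the same locus of 761 bp (chromosome 1, 90217316 to 90218076 in H). In SM, Solyc01g112370 gave 5.07, 6.29 and 5.44 FPKM at Acerra and 3.43, 7.81 and 3.60 at Sarno and Solyc01g112380 gave 11.1, 13.0 and 12.7 FPKM at Acerra and 16.4, 16.1 and 16.3 at Sarno. In RSV the means were 4.43 ± 1.28 FPKM at Acerra and 6.93 ± 2.37 at Sarno for the former and 17.1 ± 1.16 FPKM at Acerra and 16.5 ± 4.82 at Sarno for the latter, and in H neither gene exceeded 0.0802 FPKM in any library. The second pair, Solyc11g006110 and Solyc11g006120, was on in H, off in SM and between in RSV, and also shared a locus (chromosome 11, 887241 to 897704 in H). Its H libraries were 3.30, 4.19 and 3.48 FPKM at Acerra and 3.08, 2.39 and 5.08 at Sarno for Solyc11g006110 and 10.6, 4.61 and 9.62 FPKM at Acerra and 5.56, 7.36 and 10.1 at Sarno for Solyc11g006120, and all SM libraries were at 0. The 2 genes of each pair were thus given 1 locus. In the second locus a row of Solyc11g006130 was also expressed, with 11.4 ± 2.75 FPKM at Acerra and 10.4 ± 1.71 at Sarno in H. In SM, where both members were at 0, that row had 7.98 ± 0.609 FPKM at Acerra and 8.84 ± 0.860 at Sarno. In RSV it had 12.4 ± 2.29 FPKM at Acerra and 9.86 ± 0.840 at Sarno. With up to 5 other genes allowed between neighbours, a setting chosen after the data were seen, 6 pairs were found, 3 of them with the same pattern. The added pair of equal pattern was Solyc01g015260 with Solyc01g015300, on in H and SM and at 0 in RSV. The other 3 pairs differed in pattern, as did Solyc02g021260, on in RSV, and Solyc02g021320, on in SM and RSV, with means of 12.1 ± 4.51 FPKM at Acerra and 12.013 ± 4.30 at Sarno in SM.

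The genes beside the members were set against all genes. Of the 238 flanking positions (the next listed gene on either side), 4 were themselves members (1.68%), against 0.402% of all genes. These 4 were the genes of the 2 pairs that share a locus. Of the flanking positions, 66 were on in all 3 varieties (27.7%), against 35.5% of all genes, and 122 were off in all 3 (51.3%), against 41.9% of all genes. For 31 members neither neighbour was off in all varieties.

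The locus recorded for a member often differed in length between the varieties where it was on and off. A locus is the stretch of genome given for a gene after transcript assembly, which can grow with the transcripts found, so its length is not independent of expression. Among the members on in one of a pair of varieties and off in the other, the spans differed by more than 2-fold in 27 of 78 between H and SM (34.6%), 33 of 90 between H and RSV (36.7%) and 15 of 32 between SM and RSV (46.9%). Over all genes the shares were 5.64%, 5.49% and 4.56%. The longer span was on the side where the member was on in 25, 32 and 14 of these cases.

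Of the 119 members, 39 had an off locus under 0.5 times as long as the on locus and no other expressed row there, an expressed row being one that met the on level of 2 FPKM. Solyc01g057640, on in SM and RSV, spanned 48606 bp in SM and 48618 bp in RSV but 172 bp in H. Solyc01g015300 spanned 5274 bp in H and 5301 bp in SM but 172 bp in RSV, and its neighbour Solyc01g015260 spanned 2454 bp in H, 2527 bp in SM and 172 bp in RSV. Solyc05g053060 spanned 298 bp in H and 2 bp in both SM and RSV, where its value of 0 refers to a locus of that length. In another 47 members the off locus was between 0.5 and 2 times as long as the on locus with no other expressed row, and in 31 of these it had the same length in all varieties. Solyc07g049140, Solyc00g009760, Solyc03g058990 and Solyc09g050120 were of this kind.

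In 30 members another expressed row overlapped the locus in every off variety, and in 3 more in 1 of 2 off varieties. For 15 of the 30 at least 1 such row joined several gene IDs. In RSV, a row joining Solyc06g075840 and Solyc06g075860 also named the member Solyc06g075950, with 36.4 ± 7.67 FPKM at Acerra and 45.7 ± 10.9 at Sarno. The off state of Solyc06g075950 in RSV thus refers only to its row with a single ID. Solyc11g007350, between the levels in RSV, was likewise named there in a row joined with Solyc11g007360, with means of 4.23 FPKM at Acerra and 3.68 at Sarno. Solyc02g062280, on in H with means of 7.94 ± 1.74 FPKM at Acerra and 11.9 ± 6.35 at Sarno, lay in SM and RSV inside a row that joined its neighbours Solyc02g062270 and Solyc02g062290, with means between 37.5 and 44.0 FPKM. In H that joined row stood beside it with 28.9 ± 0.635 FPKM at Acerra and 33.4 ± 9.16 at Sarno. Solyc12g019970 lay likewise beside a row joining Solyc12g019960 and Solyc12g019980, which had means of 33.7 to 40.5 FPKM in all 3 varieties. Solyc11g027650 lay in a locus of 142964 bp in SM (chromosome 11), where rows of Solyc11g027670 reached 8162 ± 2588 FPKM at Acerra. In the matching loci of H and RSV, of 145007 and 145842 bp, rows of Solyc11g027670 reached 25391 ± 3502 FPKM at Acerra and 35652 ± 39047.5 FPKM at Sarno, while Solyc11g027650 was at 0. The overlap was more frequent for members than for other genes. Of the members that were off, 12.8% in H, 32.9% in SM and 34.4% in RSV had another expressed row in the locus, against 3.02%, 4.20% and 4.25% of all genes off in the variety. Of the members that were on, 44.9% in H, 24.2% in SM and 19.1% in RSV had one, against 7.07%, 8.43% and 8.26% of all genes on in the variety. Whether the reads of a member in its off variety were counted in the other row was not tested, since the files hold no reads.

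**Figure D3:**
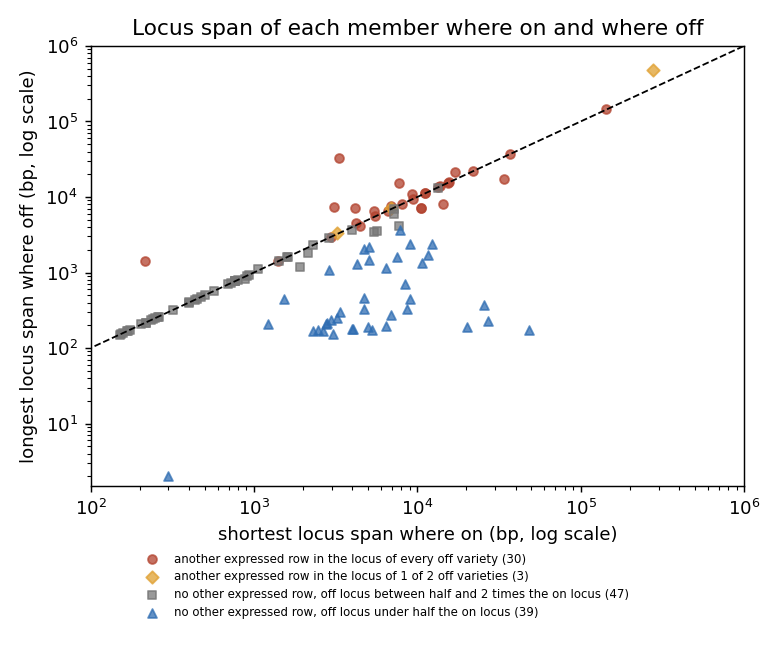
Locus span in bp of each of the 119 members where it was off (longest off variety) against where it was on (shortest on variety), both on log axes, with a dashed line at equal length. The 39 triangles lie under 0.5 times the on span, down to 2 bp for Solyc05g053060, the 47 squares near the line have no other expressed row, and circles (30) and diamonds (3) have another expressed row in an off locus.

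Whether the members responded to the growing site was asked in each variety where they were on, in the libraries whose levels the rule also used. The rule needs 2 FPKM at both sites, so a low gene that fell under this level at 1 site could not be a member there, and large differences of low genes are under-represented. The background over all tested loci carries no such limit, and the share over the loci of the variety that reached 2 FPKM at both sites is therefore given beside it, a comparison chosen after the data were seen. The difference is given as the log2 fold change of Acerra over Sarno on the scale of log2(FPKM + 0.5), which understates changes of low genes, and was called at an adjusted p under 0.05 (limma, two-sided, adjusted over all tested loci of the variety). For a single gene, 3 libraries a site allow no exact permutation p under 0.1. All members on in a variety passed the filter of a mean of 0.5 FPKM there, as the rule required.

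In H, 8 of 69 members were called (11.6%), against a background of 8.83% of 18089 tested loci and 9.23% of the 14142 loci at 2 FPKM or more at both sites. All 8 were higher at Acerra, where the background was 6.58%, and 0 were higher at Sarno, where the background was 2.26%. At an unadjusted p under 0.05 limma gave 18 members (26.1%), 14 higher at Acerra and 4 at Sarno, against 29.7% of loci. The median log2 fold change was 0.10 over the 69 members and 0.10 over all loci, and 58.0% of members and 58.9% of loci were higher at Acerra. Sites did not overlap in 18 members (26.1%), against 36.9% of loci and 37.1% of those at 2 FPKM or more.

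Solyc05g053060 had the largest called change in H, a log2 fold change of 2.98 (SE 0.64, limma adjusted p = 0.0421). Solyc06g076070 gave 18.3, 69.4 and 45.5 FPKM at Acerra and 3.30, 5.34 and 10.1 at Sarno, a change of 2.67 (SE 0.56, limma adjusted p = 0.0405). Solyc10g009120 gave 70.9, 112 and 82.0 FPKM at Acerra and 12.9, 21.5 and 22.8 at Sarno, a change of 2.20 (SE 0.27, limma adjusted p = 0.0174). All Acerra libraries of these genes were above all Sarno libraries. Solyc09g050120 changed by 1.80 (SE 0.28, limma adjusted p = 0.0220) and Solyc09g011700 by 1.70 (SE 0.39, limma adjusted p = 0.0484), the latter with 12.3, 15.2 and 18.9 FPKM at Acerra and 3.63, 2.59 and 8.37 at Sarno. The other 3 called genes were Solyc04g051180, Solyc04g049470 and Solyc12g019970, with log2 fold changes of 1.59, 1.18 and 0.76. Of the called genes, Solyc09g050120 and Solyc05g053060 had loci under 300 bp in H. In H, Solyc09g050120, Solyc05g053060, Solyc09g011700, Solyc04g049470 and Solyc04g051180 spanned 217, 298, 403, 477 and 499 bp, and Solyc06g076070 and Solyc12g019970 spanned 2947 and 6915 bp. For Solyc10g009120 the shorter of the loci in H and SM spanned 215 bp. The median over members on in H was 5021 bp, and the part of length in the calls was not tested. Among the members of H that were not called, Solyc04g071110 had the largest difference, -3.75 (SE 1.26, limma adjusted p = 0.108), and was higher in all Sarno libraries.

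Whether the genes of H passed the threshold changed with the libraries and the scaling, while their direction did not. Without Acerra replicate 1, 2 or 3 there were 0 member calls, and 82, 3 and 4 calls among all loci in place of 1598, while without Sarno replicate 1, 2 or 3 there were 6, 3 and 8. Of the 3 called without Sarno replicate 2, 1 was higher at Sarno. Scaled by median ratio or by quantiles, the median of all loci in H moved from 0.10 to -0.00498 and -0.02, and 3 members were called under each, all higher at Acerra. All loci called higher at Acerra and at Sarno then numbered 633 and 456 by median ratio and 424 and 407 by quantiles, in place of 1190 and 408. The fold changes moved less than the calls. Over all refits Solyc10g009120 in H lay between 1.94 and 2.34, Solyc09g050120 between 1.55 and 2.09 and Solyc04g049470 between 0.95 and 1.38, and 0 of the 8 reversed. By median ratio the 5 genes no longer called had limma adjusted p-values from 0.0501 to 0.0657.

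In SM, 4 of 33 members were called (12.1%), against 8.21% of 18150 loci and 8.03% of the 14151 loci at 2 FPKM or more at both sites. Of these, 3 were higher at Acerra (background 6.07%) and 1 at Sarno (background 2.14%). The largest was Solyc10g009120, with 44.0, 48.9 and 59.1 FPKM at Acerra and 8.03, 8.81 and 10.6 at Sarno and a log2 fold change of 2.41 (SE 0.15, limma adjusted p = 0.00111). Solyc04g026130 gave 8.80, 12.6 and 10.6 FPKM at Acerra and 4.98, 5.54 and 6.09 at Sarno, a change of 0.87 (SE 0.16, limma adjusted p = 0.0241), and Solyc01g015260 changed by 0.86 (SE 0.15, limma adjusted p = 0.0195). Solyc05g010380 was higher at Sarno, with 5.24, 5.71 and 4.72 FPKM at Acerra and 9.32, 7.40 and 9.89 at Sarno and a change of -0.70 (SE 0.15, limma adjusted p = 0.0378). The sites did not overlap in any of the 4. Over all 33 members they did not overlap in 8 (24.2%), against 33.1% of loci, and limma gave 9 members at an unadjusted p under 0.05 (27.3%), against 25.7% of loci. The median log2 fold change was 0.16 over the 33 members and 0.02 over all loci, and 66.7% of members and 52.7% of loci were higher at Acerra. Under median ratio and quantile scaling 5 members were called, 3 higher at Acerra and 2 at Sarno, and the calls of all loci were 1083 and 498 by median ratio and 1027 and 905 by quantiles, in place of 1102 and 388. Without Acerra replicate 1, 2 or 3 there were 2, 1 and 1 member calls, and without Sarno replicate 1, 2 or 3 there were 2, 5 and 2.

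In RSV, 4 of 47 members were called (8.51%), against 11.8% of 18328 loci and 10.9% of the 14259 loci at 2 FPKM or more at both sites. Of these, 3 were higher at Acerra (background 6.11%) and 1 at Sarno (background 5.72%). Solyc05g052560 gave 100.4, 103 and 107 FPKM at Acerra and 9.82, 10.2 and 19.2 at Sarno, the largest change at 3.00 (SE 0.25, limma adjusted p = 0.00242). Solyc02g021260 gave 16.1, 15.7 and 22.7 FPKM at Acerra and 3.39, 4.06 and 5.50 at Sarno, a change of 1.96 (SE 0.22, limma adjusted p = 0.00586), and Solyc01g057640 changed by 1.04 (SE 0.20, limma adjusted p = 0.0253). In these genes every Acerra library was above every Sarno library. Solyc09g008180 went the other way, with 5.04, 5.55 and 5.99 FPKM at Acerra and 18.3, 15.4 and 43.8 at Sarno and a change of -1.98 (SE 0.37, limma adjusted p = 0.0237). Over all 47 members the sites did not overlap in 12 (25.5%), against 37.9% of loci, and limma gave 13 members at an unadjusted p under 0.05 (27.7%), against 30.4% of loci. The median log2 fold change was 0.08 over the 47 members and -0.02 over all loci, and 55.3% of members and 48.4% of loci were higher at Acerra. Without Sarno replicate 3, the library with the highest FPKM sum, 7 members were called (4 higher at Acerra, 3 at Sarno) and the calls of all loci rose from 2167 to 4176 of 18277. Without Acerra replicate 3 there were 2 member calls.

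**Figure D4:**
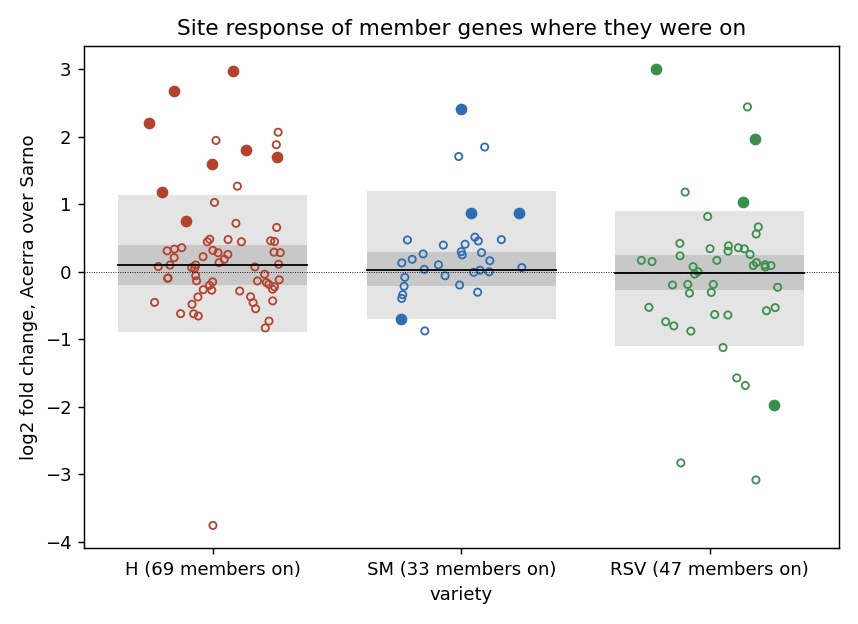
Log2 fold change of Acerra over Sarno for the members on in H (69), SM (33) and RSV (47), as filled points where the limma adjusted p was under 0.05 and open points otherwise. Shading gives the middle 50% and 90% of all tested loci of the variety and the line their median. Called members number 8, 4 and 4.

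**Figure D5:**
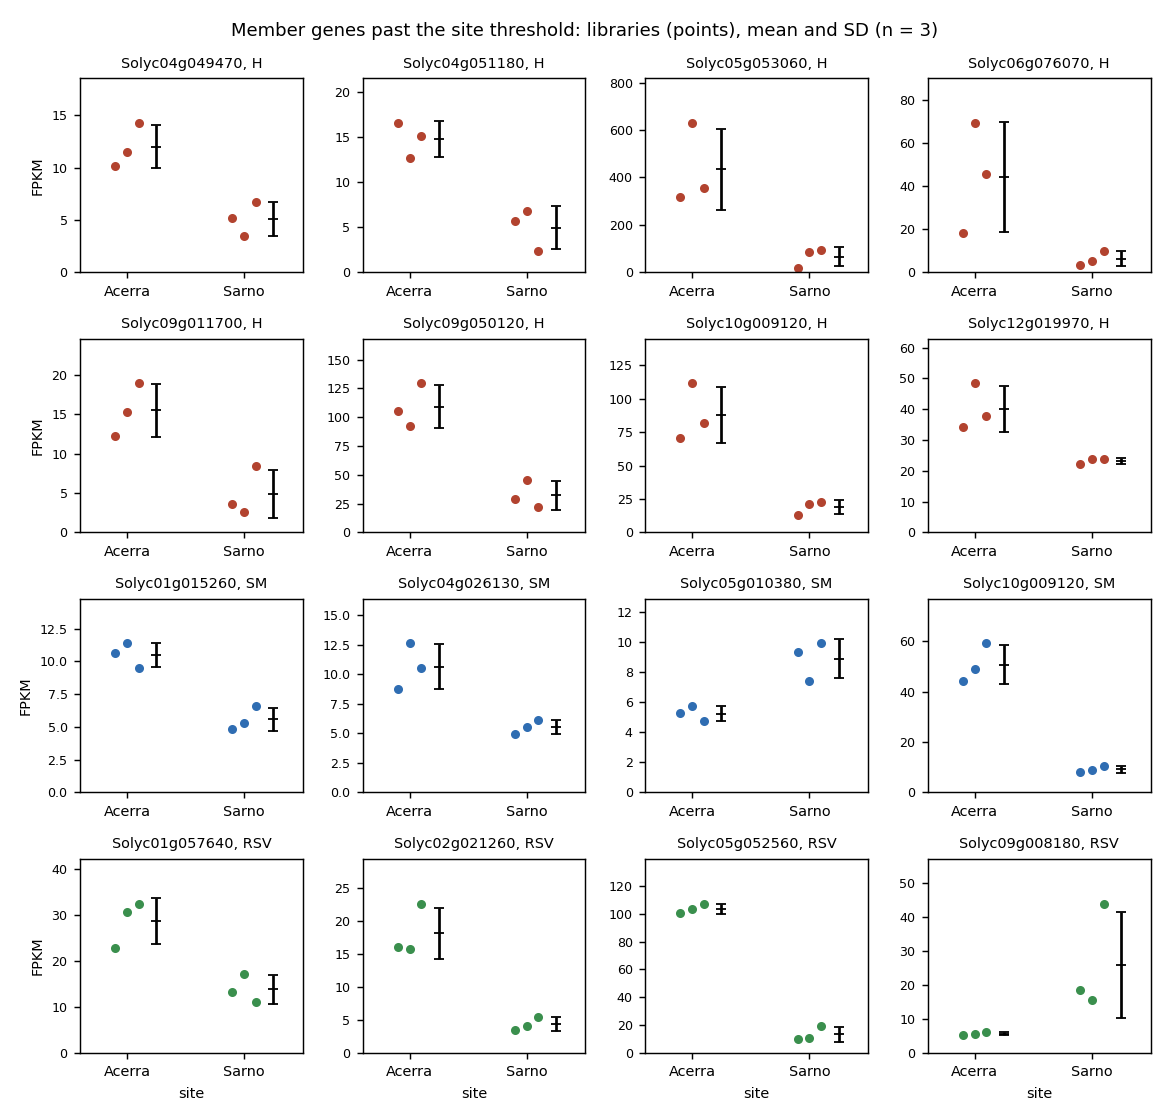
FPKM of the 16 called site responses, with the 3 libraries of each site as points and the mean and SD beside them, each panel on its own axis from 0. The sites do not overlap in any panel, and in 14 of the 16 Acerra is higher.

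Rows that shared a locus with a called member were compared between sites as well. Solyc10g009120 shares its locus in H and RSV with Solyc10g009110, an ethylene responsive factor, that is, a gene of a family of transcription factors of ethylene signalling. In RSV, where Solyc10g009120 was at 0, Solyc10g009110 had 229.9 ± 16.5 FPKM at Acerra and 74.2 ± 21.3 at Sarno, a log2 fold change of 1.67 (SE 0.22, limma adjusted p = 0.00944). In SM it had 151 ± 33.2 FPKM at Acerra and 45.5 ± 11.6 at Sarno, a change of 1.73 (SE 0.24, limma adjusted p = 0.00963), and in H 280.1 ± 83.3 FPKM at Acerra and 78.1 ± 41.2 at Sarno, a change of 1.97 (SE 0.49, limma adjusted p = 0.0574) that missed the threshold. Solyc05g052560 lies beside a row that joins Solyc05g052550 and Solyc05g052570. In SM, where Solyc05g052560 was at 0, that row had 407 ± 81.8 FPKM at Acerra and 37.7 ± 12.024 at Sarno, a change of 3.45 (SE 0.27, limma adjusted p = 0.00170). In RSV it had 310.2 ± 40.1 FPKM at Acerra and 35.3 ± 14.7 at Sarno, a change of 3.19 (SE 0.30, limma adjusted p = 0.00349), and in H 656 ± 123 FPKM at Acerra and 249 ± 181 at Sarno, a change of 1.88 (SE 0.80, limma adjusted p = 0.174) that was not called. In both loci the off variety thus held another expressed row that was higher at Acerra, in the direction of the member where it was on. The row beside Solyc12g019970 did not pass the threshold, with limma adjusted p-values from 0.461 to 0.935 over the varieties, while the member itself was called in H. Solyc06g076080, which shares the locus of Solyc06g076070 in H, had a change of 2.65 (SE 0.76, limma adjusted p = 0.0759) there, of 5.16 (SE 0.82, limma adjusted p = 0.0153) in SM and of 0.72 (SE 0.52, limma adjusted p = 0.396) in RSV, and was called in SM alone. The 5 expressed rows in the SM locus of Solyc02g021260, which was between the levels in SM, were not called there, with limma adjusted p-values from 0.725 to 0.999.

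Members on in 2 varieties allowed the site responses to be compared. Of the 7 members on in H and SM, the 4 on in H and RSV and the 19 on in SM and RSV, limma called 0 interactions of site and variety, against backgrounds of 0.0866%, 0.101% and 0.651% of loci. At an unadjusted p under 0.05 there were 1, 0 and 0, against 11.7%, 16.9% and 14.3% of loci. The single one was Solyc01g015260, for which the change was 0.61 larger in SM than in H on the log2 scale (SE 0.21, limma adjusted p = 0.300). The rise of Solyc10g009120 at Acerra was 0.21 larger in SM than in H (SE 0.32, limma adjusted p = 0.832), so its size in the 2 varieties did not differ beyond the error. For Solyc05g052560 the change was 1.06 larger in RSV than in H (SE 0.88, limma adjusted p = 0.582), and H alone gave 301, 419.5 and 418 FPKM at Acerra and 25.6, 206 and 173 at Sarno, with a low first Sarno library. Without that library, H Sarno replicate 1, the difference was 2.01 and was called (limma adjusted p = 0.0421). The sign of the change was the same in both varieties for 6 of the 7 members on in H and SM. It was the same for 1 of the 4 on in H and RSV and for 10 of the 19 on in SM and RSV. Among the 19 members on in SM and RSV, the changes in SM lay between -0.88 and 1.85 and those in RSV between -2.83 and 2.44. Solyc06g076530 was highest in both, with 1.85 (SE 0.64, limma adjusted p = 0.132) in SM and 2.44 (SE 0.61, limma adjusted p = 0.0520) in RSV, neither past the threshold. Solyc01g106620 was lowest in both, with -0.88 (SE 0.57, limma adjusted p = 0.377) in SM and -2.83 (SE 1.10, limma adjusted p = 0.143) in RSV. Solyc04g026130 had nearly equal changes, 0.87 in SM and 0.82 in RSV, and was called in SM alone, while Solyc01g057640, with 0.47 and 1.04, was called in RSV alone. For neither gene was the difference between varieties past the threshold (-0.06, SE 0.42, limma adjusted p = 0.970 for the first and 0.56, SE 0.46, limma adjusted p = 0.614 for the second).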

How the data were processed

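The deposited values were FPKM per locus and library, written with decimal commas and computed by the authors with TopHat 2.0.6 and Cufflinks 2.1.1 (multi-read correction, annotation-guided assembly, 1 run per variety) after demultiplexing with CASAVA 1.8.2, per the labels and the methods of the study. The files hold no counts and the fragment totals listed by the study were not used here, so no interval was computed for a single value, and precision comes from the 3 libraries of a group. Rows with 1 gene ID, listed once in each variety, were matched by ID, without the version suffix. All per-sample columns were used.

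The limma 3.58.1 fits (R 4.3.3, eBayes with a trend) took loci whose mean reached 0.5 FPKM, as log2(FPKM + 0.5). They were run on simulated data as a check of the code. The simulated noise was normal and held no outlying libraries, so it does not bear on how such libraries move the calls. They covered 6 libraries within a variety, or 12 for an interaction. Tables were made in Python 3.11.15 with pandas 2.3.3 and figures with matplotlib 3.10.9. Alternatives were other levels, pseudocounts, filters, scalings, eBayes settings, a replicate block, a minimum log2 fold change of 1 and the omission of each library.

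Members, lists and tests were chosen with earlier results of these data known. Named are the 5 members per pattern with the highest lowest on mean, members in runs of equal pattern, up to 5 called members per direction and variety with the largest site response, members past the interaction threshold, the 2 genes nearest each level on either side and members with an ID in the study's tables. Further genes, named as examples of locus length, of joined rows, of single-library levels, of the other calls or of uncalled differences, were chosen after their values were seen. Functions and sequences of the members were not analysed here.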

Additional observations from a re-analysis of the deposited data

How the results depend on the processing

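The count of 119 members moved with its levels, to 196 at an on level of 1 FPKM, 64 at 5 FPKM, 183 at an off level under 0.5 FPKM and 78 where off meant 0 in all 6 libraries. It was 101 at an off level under 0.05 FPKM, 80 with every single library past the level, 120 after median ratio scaling, 119 with joined rows allowed, 117 for IDs in no joined row (chosen after the data were seen), and from 114 to 123 with each library left out. The 2 runs became 6 with up to 5 genes between. Member calls in H fell from 8 to 0 without a filter, where the 35566 loci tested included those at 0, to 3 by median ratio or quantile scaling and to 5 with no trend, those in SM from 4 to 1 without a filter or with a minimum log2 fold change of 1, and those in RSV from 4 to 2 without a filter. The cause of these changes was not tested. With each library left out, the member calls of H lay between 0 and 8, those of SM between 1 and 5 and those of RSV between 2 and 7, and the interactions of H and RSV between 0 and 1, with 0 throughout for H and SM and for SM and RSV. The 16 called responses reversed in 0 of 240 refits and stayed past the threshold in 154, and 3 did so in every refit, namely Solyc10g009120 in SM and Solyc02g021260 and Solyc05g052560 in RSV.

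Replicates share numbers across sites, and the deviations of same-numbered libraries correlated between -0.0411 and 0.292. For replicate 1 the correlation was 0.136 in H, 0.278 in SM and 0.292 in RSV, against at most -0.0426, -0.0941 and 0.0502 with other numbers. For replicate 2 it was 0.0610, -0.00487 and -0.0411, against at most 0.0122, 0.101 and 0.116. For replicate 3 it was 0.0304, 0.136 and 0.122, against at most 0.0784, 0.131 and -0.0117. Whether equal numbers mark a shared block was not tested, and the main fits did not take them as pairs. With the replicate block 6 members were called in H, 3 in SM and 6 in RSV, and 0 interactions, against 1113, 1271 and 1121 of all loci in H, SM and RSV in place of 1598, 1490 and 2167. Of the 6 in H, 5 were higher at Acerra and 1 at Sarno.

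Since the files hold FPKM without counts, counting error was not computed, and the part of depth in the spread between replicates was not tested.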
